A study of Mus musculus with 24 samples.

Results

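The 10 genes described here are carried by monocytes and neutrophils, the white blood cells that enter a tissue from the circulation: Lyz2, Ly6c2, Ccr2, S100a8, S100a9, S100a4, Plac8, Itgam, Itgax and Chil3. They were taken by name, and stood as 10 of the 21755 genes in the table of p16-3MR livers and 8 of the 12643 in the table of wild-type livers. Ccr2 and Itgam have no value in the wild-type table, because the gene labels there had lost letters and what was left of these names also fitted Ccrl2 and Itgal.

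The livers came from 8 groups of 3 mice. The p16-3MR mice carried a bacterial artificial chromosome in which the p16 promoter drives the 3MR cassette, whose viral thymidine kinase turns ganciclovir (GCV) into a toxin, so the model reaches only cells in which that promoter is active. From an age of 16 to 18 months, females and males received GCV at 150 mg/kg by the sample labels (the study's methods state another dose) or vehicle (VEH, water at pH11), into the peritoneum on 5 days in a row each month. Wild-type females and males began the same GCV or VEH courses at 6 months and gave their livers 3 months later. By the study's methods the p16-3MR livers were taken at a later age and after longer treatment than the wild-type livers. Genotype, age at start and at harvest, length of treatment and the batch given in the labels (1 for p16-3MR, 2 for wild-type) therefore differ together between the tables and cannot be told apart. RNA was read near the 3′ end of transcripts (Smart-3SEQ).

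Neutrophils and classical monocytes leave the bone marrow and reach the liver through its sinusoids, where resident macrophages, the Kupffer cells, already live. Monocytes follow chemokines through the receptor CCR2, and both cell types adhere through integrins that pair a CD11 chain with a common beta chain. Neutrophils are packed with S100A8 and S100A9, a pair of calcium-binding proteins that form calprotectin and are released as alarm signals. Some of these genes are also active in resident macrophages, Lyz2 above all, so no single one of them marks an incoming cell.

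In GRCm38, S100a4 (chr3:90603771-90606045), S100a8 (chr3:90668978-90670035) and S100a9 (chr3:90692632-90695721) stand in 1 stretch of chromosome 3, with 22.6 kb between S100a8 and S100a9. Chil3 (chr3:106147554-106167564) is on the same chromosome. Itgam (chr7:128062640-128118491) and Itgax (chr7:128129547-128150657) are neighbours with 11.1 kb between them. Lyz2 (chr10:117277331-117282321), Ly6c2 (chr15:75108158-75111970), Ccr2 (chr9:124101950-124113557) and Plac8 (chr5:100553725-100572245) stand alone.

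The 3 members whose levels ranged furthest between p16-3MR livers were Itgam, Chil3 and S100a9, and their upstream sequence is shown because the members varied together. Each is the 250 bases before the annotated start (RefSeq, GRCm38.p6), at chr7:128062390-128062639 on the plus strand, chr3:106167565-106167814 on the minus strand and chr3:90695722-90695971 on the minus strand. Capitals mark matches to GAGGAA, the core bound by the myeloid factor PU.1, or to TTGCNNAA, letters found in sites of C/EBP factors, on either strand.
Itgam: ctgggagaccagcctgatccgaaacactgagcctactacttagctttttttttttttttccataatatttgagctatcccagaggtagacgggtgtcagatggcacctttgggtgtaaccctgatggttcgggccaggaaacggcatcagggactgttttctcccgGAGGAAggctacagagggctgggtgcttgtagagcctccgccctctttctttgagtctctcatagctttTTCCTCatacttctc
Chil3: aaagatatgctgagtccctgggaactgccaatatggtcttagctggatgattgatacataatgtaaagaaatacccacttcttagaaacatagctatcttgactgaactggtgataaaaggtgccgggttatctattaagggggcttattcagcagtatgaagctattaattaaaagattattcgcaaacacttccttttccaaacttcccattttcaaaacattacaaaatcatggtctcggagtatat
S100a9: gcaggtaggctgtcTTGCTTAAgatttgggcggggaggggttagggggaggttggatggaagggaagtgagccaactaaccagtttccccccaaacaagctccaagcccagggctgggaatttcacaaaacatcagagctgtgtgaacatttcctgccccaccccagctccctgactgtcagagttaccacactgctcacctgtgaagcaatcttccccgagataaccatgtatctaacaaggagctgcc

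Itgam held 2 matches to the PU.1 core, beginning 84 and 15 bases before the start, S100a9 held 1 match to the C/EBP letters at 236 bases, and Chil3 held neither. GAGGAA lay in the same window of 23.3% of 32851 RefSeq promoters and in those of 4 members (Itgam, Ly6c2, Plac8 and S100a8). TTGCNNAA lay in 9.56% of all promoters and in those of 2 members (Plac8 and S100a9). A match to these short strings describes the sequence and shows no binding.

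Total counts were 5005760 to 7160172 in p16-3MR livers and 3084517 to 5667904 in wild-type livers. A level of 3 counts, the limit that a count of 0 allows, came to 0.293 to 0.578 CPM (counts scaled to a common library size by TMM) in 11 p16-3MR livers and to 2.32 CPM in GCV female 33. That liver stood apart, with 64.0% mitochondrial counts against 12.3% to 22.4% in the other 11. Its TMM factor was 0.259 against at least 0.850 in the others, and 13409 genes were detected against at least 16804. Each count there thus gives more CPM than elsewhere, and every CPM given below for that liver carries this scaling. S100a8 at 152 CPM there rests on 197 counts, where 141 CPM in VEH female 28 rests on 977. GCV male 32 and VEH male 24 stood apart in the other direction, with TMM factors of 1.80 and 1.64 against at most 1.19 elsewhere. Their 10 hepatocyte genes, albumin among them, summed to 36079 and 53840 CPM against 99746 to 164865 CPM in the other 10. Cdkn2a, which encodes p16, had 0 to 7 counts per p16-3MR liver.

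S100a8 and S100a9, which neutrophils carry in bulk, ranged 85.2-fold and 104-fold between p16-3MR livers on the log2 CPM scale, and high and low livers were found in every group. S100a8 stood at 20.4, 152 and 2.18 CPM in GCV females 31, 33 and 35 and at 2.55, 141 and 14.0 CPM in VEH females 27, 28 and 29. In males it was 53.7, 173 and 1.73 CPM in GCV livers 30, 32 and 34 and 56.8, 4.11 and 1.88 CPM in VEH livers 24, 25 and 26. Both sexes thus held livers below 3 CPM and livers above 50 CPM under either treatment, and GCV and VEH values overlapped. S100a9 measured 25.4, 37.8 and 3.02 CPM in GCV females and 1.88, 160 and 20.3 CPM in VEH females. Its values were 77.5, 227 and 4.99 CPM in GCV males and 77.1, 3.39 and 2.03 CPM in VEH males. The order of the livers was close to that of S100a8, apart from GCV female 33.

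Because the products of both genes form 1 complex, their levels were compared across livers. In p16-3MR livers the log2 CPM of S100a8 and S100a9 gave Pearson's r = 0.95 (permutation p = 4e-05, two-sided, 8e-05 adjusted over the 2 tables) and Spearman's rho = 0.86 (permutation p = 0.00065, 0.0013 adjusted). With the group means removed, r was 0.96 (permutation p = 1e-05, the smallest that 100000 resamples can give). Without the 2 livers farthest from the median of S100a8, GCV female 33 and GCV male 32, it was 0.98 (permutation p = 9e-05). By the rho of log2 CPM the pair did not stand apart among the 10 members, whose 45 pairs had a median rho of 0.79. S100a9 had a higher rho with Chil3 (0.93), Ccr2 (0.90), Plac8 (0.89) and Ly6c2 (0.87), and S100a8 had one of 0.87 with Ccr2. With the group means removed the pair had a rho of 0.94, against a median of 0.80 over the 45 pairs. S100a9 was then the member closest to S100a8, while the rho of S100a9 with Chil3 (0.97) and of Ly6c2 with Plac8 (0.97) was higher. In wild-type livers, where neither gene passed 13 counts, r was 0.32 (permutation p = 0.31, also 0.31 adjusted) and rho was 0.27 (permutation p = 0.394, also 0.394 adjusted), and r was -0.13 (permutation p = 0.688) with the group means removed.

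**Figure D1:**
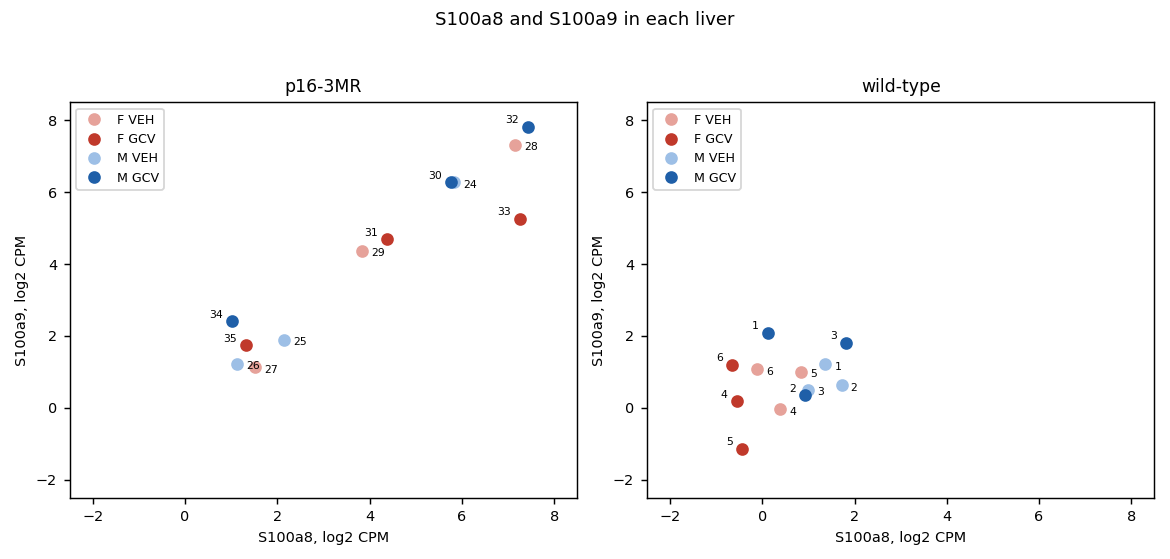
Log2 CPM of S100a8 (x axis) against S100a9 (y axis) in each p16-3MR liver (left) and wild-type liver (right), coloured by sex and treatment and numbered by liver. The p16-3MR livers lie along a line from near 1 to above 7 on both axes with GCV female 33 off it, and the wild-type livers lie below 2.5 on both.

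Of the reads of both genes together, S100a8 took 40.9% to 46.9% in the 4 p16-3MR livers with the most such counts (VEH female 28 and males 24, 30 and 32). In GCV female 33 it took 80.1% (197 of 246 counts, exact 95% binomial interval 74.5% to 84.9%, counting error only). That share was above the upper bound of the interval in each of the other 11 p16-3MR livers, whose shares ran from 25.7% to 57.6%.

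Chil3, a chitinase-like secreted protein of myeloid cells also called Ym1, was either near 0 or clearly present. It was listed at 0 counts in GCV female 35, VEH female 27 and VEH males 25 and 26, which allows up to 0.402 to 0.536 CPM. It reached 10.8 and 5.41 CPM in GCV females 31 and 33, 14.0 and 2.64 CPM in VEH females 28 and 29, 8.74, 35.2 and 0.768 CPM in GCV males 30, 32 and 34, and 8.99 CPM in VEH male 24. GCV and VEH livers overlapped in both sexes. The livers without Chil3 reads were 4 of the 5 with the least S100a8. Its near copy Chil4 was read only in GCV female 35 (53 counts) and GCV male 34 (66 counts), both livers with little or no Chil3. Of the 31-base words in the last 300 bases of Chil3 transcripts, 25% also occur in Chil4 or the gene model Gm6522, so some reads could be shared. That share is not split between Chil4 and Gm6522. Of the terminal words of Chil4 itself, 9 of 540 (1.67%) also occur in Chil3.

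The monocyte genes followed the same livers over a smaller range. Ly6c2, a surface protein of classical monocytes, was at 4.63, 1.54 and 3.35 CPM in GCV females 31, 33 and 35 and at 0.670, 21.0 and 6.29 CPM in VEH females 27, 28 and 29. GCV males had 9.58, 20.4 and 3.07 CPM and VEH males 13.5, 0.714 and 0.625 CPM. VEH female 28 was highest for this gene, just above GCV male 32, and GCV and VEH overlapped in both sexes. Of its terminal 31-base words 50.1% occur in other genes of the Ly6 family, yet its closest copy Ly6c1 had at most 8 counts in any p16-3MR liver.

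Ccr2, the chemokine receptor that draws monocytes out of the marrow, was at 7.33, 17.0 and 3.69 CPM in GCV females and 2.55, 11.9 and 11.7 CPM in VEH females. It was at 33.3, 37.0 and 2.69 CPM in GCV males and 41.4, 5.0 and 2.66 CPM in VEH males. Here VEH male 24 was the highest liver, GCV males 30 and 32 stood close to it, and the groups overlapped. Plac8, a cysteine-rich protein abundant in monocytes and neutrophils, was at 12.9, 8.5 and 5.87 CPM in GCV females and 3.75, 22.7 and 16.1 CPM in VEH females. It was at 13.4, 24 and 5.76 CPM in GCV males and 17.9, 3.57 and 2.34 CPM in VEH males. With a 9.16-fold range it varied least of the 10 genes, and its groups overlapped too.

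S100a4, a calcium-binding protein of motile cells, was at 4.43, 0 and 2.68 CPM in GCV females and 2.14, 5.21 and 8.18 CPM in VEH females. In males it was 17.1, 19.9 and 3.84 CPM with GCV and 18.7, 2.86 and 2.19 CPM with VEH. Its 0 in GCV female 33 allows up to 2.32 CPM, which exceeds the value in VEH female 27, and GCV and VEH overlapped in both sexes. A gene model on the same strand, Gm42674, overlaps S100a4 and holds 56.4% of its terminal words, so reads may be divided between them.

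Lyz2, the lysozyme of macrophages, monocytes and neutrophils, was at 98.5, 57.9 and 47.5 CPM in GCV females 31, 33 and 35 and at 91.4, 168 and 204 CPM in VEH females 27, 28 and 29. It was at 327, 1049 and 86.4 CPM in GCV males 30, 32 and 34 and at 782, 83.8 and 50.2 CPM in VEH males 24, 25 and 26. Both GCV male 32 and VEH male 24 were more than 2-fold above every other liver, while VEH males 25 and 26 lay in the range of the GCV females. GCV and VEH overlapped in both sexes. Its near copy Lyz1 shares 34.1% of the terminal words and had 104 and 89 counts in males 32 and 24 against 0 to 17 elsewhere.

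Both integrin chains also peaked in males. Itgam, which encodes CD11b of macrophages, monocytes and neutrophils, was at 4.63, 9.27 and 3.52 CPM in GCV females and 2.95, 15.2 and 21.6 CPM in VEH females. It was at 22.7, 230 and 1.92 CPM in GCV males and at 76.9, 5.36 and 0.938 CPM in VEH males. Its 185-fold range on the log2 CPM scale was the widest of the 10 genes. Male livers held both the highest and the lowest values, and GCV and VEH overlapped in both sexes. Itgax, which encodes CD11c of dendritic cells and some macrophages, was at 1.54, 0 and 2.18 CPM in GCV females, 2.41, 5.64 and 6.42 CPM in VEH females, 7.89, 8.0 and 0.384 CPM in GCV males and 5.48, 1.79 and 1.56 CPM in VEH males. It was the only member whose GCV and VEH females did not overlap, and its male groups overlapped. Terminal words of Itgam (25.7%) occur in many other genes, and the gene model Gm49368 overlaps it on the same strand, so some of its reads may be counted elsewhere.

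**Figure D2:**
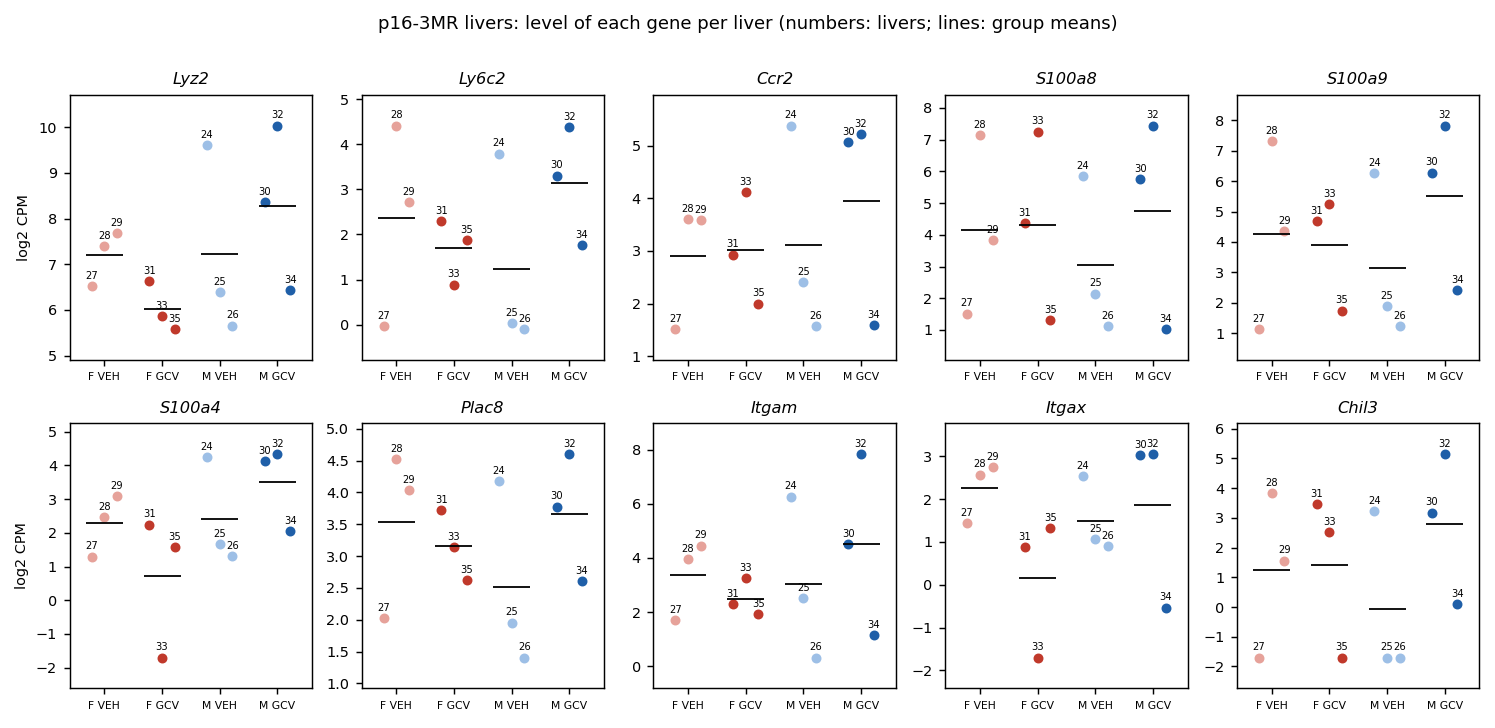
Log2 CPM of each member in each p16-3MR liver, by sex and treatment; points are livers with their numbers and lines are group means. Liver 32 was the highest for 8 of 10 members, and GCV and VEH overlap in every panel and sex but Itgax in females.

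Ranked over the 12 p16-3MR livers, the same few livers carried all 10 genes. GCV male 32 was highest for 8 members and among the 2 highest for 10. VEH male 24 was among the 4 highest for 9, GCV male 30 for 7 and VEH female 28 for 6. At the other end VEH male 26 was among the 4 lowest for 10 and VEH female 27 for 8. In bulk liver a higher level can stem from more cells of a type or from more RNA per cell, which these data cannot tell apart.

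The spread between livers of 1 group was wide for these genes. Pooled over the 4 p16-3MR groups, the within-group SD of log2 CPM ran from 1.14 for Plac8 to 2.92 for S100a8 with a median of 1.69, against a median of 0.61 over the 12409 genes with a mean of at least 10 counts. Of the 10 members, 9 lay above the 90th percentile of those genes (1.37) and Plac8 did not. With GCV female 33 and males 24 and 32 left out, 8 of 10 lay above the 90th percentile, the members' median was 1.45 and that of all genes 0.37. In wild-type livers only Lyz2 and Plac8 had a mean of at least 10 counts, and their SDs of 0.23 and 0.29 stood near the median of 0.25 over 8613 genes.

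**Figure D3:**
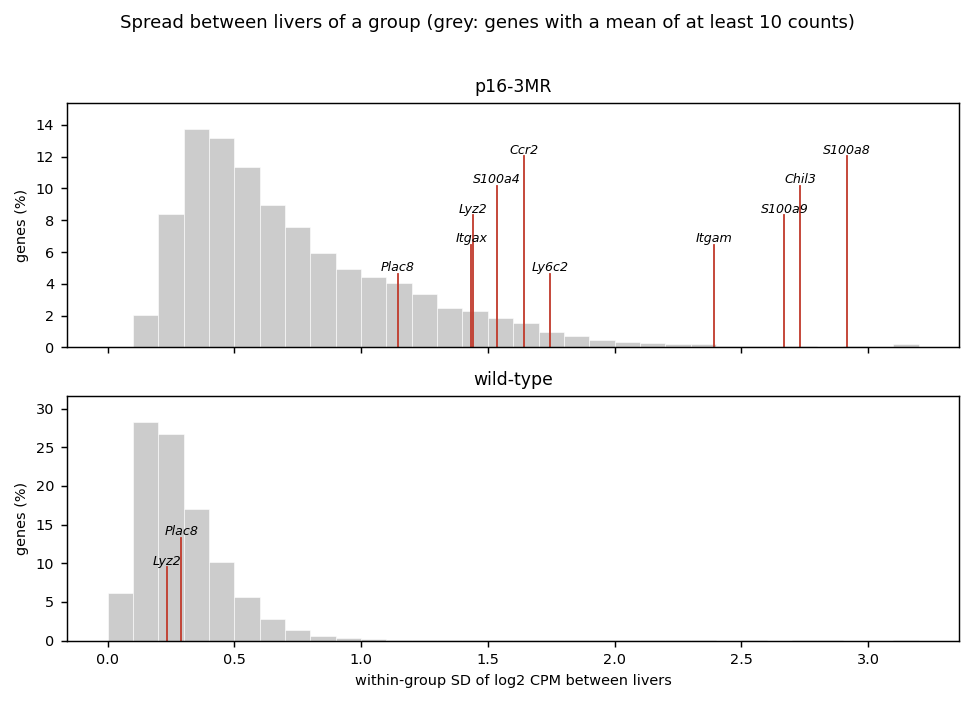
Share of genes (y axis, %) by within-group SD of log2 CPM between livers (x axis) in each table, for genes with a mean of at least 10 counts; the last bar also holds larger values and red lines mark members. In p16-3MR livers 9 of 10 members stand above 1.37, the 90th percentile, and in wild-type livers Lyz2 and Plac8 stand in the middle of the distribution.

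Summed markers of neutrophils, Kupffer cells, T and NK cells and leukocytes as a whole were highest in livers where the members were high, red cell genes were high in the same livers and in GCV female 33, and B cell markers were ordered less alike. The 18 neutrophil granule and surface genes summed to 7.55 to 108 CPM in GCV females, 7.10 to 294 CPM in VEH females, 29 to 566 CPM in GCV males and 5.0 to 122 CPM in VEH males, highest in livers 32, 28, 30 and 24. Ngp, a neutrophil granule protein, had 897, 673, 242 and 252 counts in those 4 livers and none in VEH males 25 and 26. Ly6g, the antigen that defines mature neutrophils, was at 0 in 9 of 12 livers and never passed 5 counts, and Elane, neutrophil elastase, was at 0 in 4. The 11 Kupffer cell markers summed to 161 to 499 CPM in GCV females, 432 to 1244 CPM in VEH females, 312 to 5188 CPM in GCV males and 224 to 2679 CPM in VEH males, and none of them was at 0 in any liver. The 10 T and NK cell markers summed to 155 and 117 CPM in males 24 and 32 and to 3.28 to 69.7 CPM in the other 10 livers. The 20 other monocyte genes summed to 837 to 1897 CPM in GCV females, 1580 to 2948 CPM in VEH females, 1417 to 2163 CPM in GCV males and 983 to 1484 CPM in VEH males. Fn1, fibronectin, which hepatocytes also make in bulk, was 24% to 96.5% of that sum. Without it, a choice made after seeing the data, the other 19 genes summed to 1644 and 886 CPM in males 32 and 24, to 368, 457 and 522 CPM in livers 28, 29 and 30 and to 55.0 to 133 CPM in the other 7. The 9 pan-leukocyte genes, Ptprc (CD45) among them, summed to 188 to 266 CPM in GCV females, 276 to 1113 CPM in VEH females, 245 to 2927 CPM in GCV males and 185 to 1253 CPM in VEH males, and none was at 0 in any liver. All 9 were below 0 for GCV against VEH in females and above 0 in males, and none was called. The 8 erythroid genes, globins among them, summed to 2408 CPM in GCV female 33, to 1722, 1421, 1211 and 792 CPM in livers 30, 24, 28 and 32 and to 49.0 to 387 CPM in the other 7. They were 6 of 8 above 0 in females and 7 of 8 above 0 in males, and none was called. The 7 sinusoidal endothelial markers summed to 291, 280 and 249 CPM in livers 24, 32 and 28 and to 93.8 to 186 CPM in the other 9, and 2 had an unadjusted p under 0.05 in females, lower with GCV, against 7.37% of all genes. The 10 dendritic cell markers summed to 209 and 147 CPM in males 32 and 24 and to 75.3 to 129 CPM in the other 10, with 9 above 0 in males and 6 below 0 in females. In the sum of the 7 B cell markers GCV male 32 was 11th and GCV male 34 1st. The part of these cell types, and of blood held in the tissue, in the members' levels was not tested.

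The 10 genes most like the members were found by the Spearman rho of log2 CPM with the members' mean standardized level over the 12 p16-3MR livers, among the 12365 other genes that have a symbol and average 10 counts or more. They were March1, AI662270, F630028O10Rik, Cgas, Cmtm3, Pabpc1, Cd47, Procr, Rhoh and Arhgap4, with rho from 0.986 down to 0.951, at which 2 further genes were tied with the last. Without GCV female 33 each had a rho of at least 0.927, but only 4 of the 10 (March1, AI662270, F630028O10Rik and Procr) were still among the 10 most alike. They were picked for that likeness, and the livers share depth and composition, so the values describe order only.

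The first question of the design is whether GCV changed these genes in p16-3MR females. Levels were mostly lower with GCV, but no member of the list passed edgeR's quasi-likelihood test at an adjusted p under 0.05, and none had an unadjusted p under 0.05. Over all 21755 genes that test called 0% after adjustment, and 7.37% had an unadjusted p under 0.05. Of the 10 members, 7 had a log2 fold change from -1.70 to -0.64 and the other 3, Chil3, Ccr2 and S100a8, stood between -0.04 and 0.11, with a median of -1.05 over the 10 against 0 over all genes. Itgax was nearest to the threshold: it averaged 1.2 ± 1.1 CPM with GCV and 4.82 ± 2.12 CPM with VEH (SD, n = 3), a log2 fold change of -1.70 ± 0.94 (SE) with an edgeR adjusted p of 0.681. It was also the only member whose GCV and VEH females did not overlap, as 13.3% of all genes did not, and its 0 in GCV female 33 allows up to 2.32 CPM, the highest of the other GCV values being 2.18 CPM.

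Among the other members in p16-3MR females, both calprotectin genes depended on single livers. S100a9 had a log2 fold change of -1.50 ± 1.56 (SE, edgeR) and S100a8 one of 0.11 ± 1.63. Without GCV female 33 the value for S100a8 was -2.30, and without VEH female 28 it was 2.68, where that for S100a9 was 0.86. Chil3 stood at -0.04 ± 1.74 and Ccr2 at 0.00 ± 0.64, and both also changed sign with single livers left out. Chil3 then ran from -1.56 to 1.91 (the latter without VEH female 28) and Ccr2 from -0.73 to 0.42. Ly6c2 stood at -1.45 ± 1.18 and at -0.12 without VEH female 28, Itgam at -1.30 ± 1.48, Lyz2 at -1.18 ± 0.96, S100a4 at -0.92 ± 0.93 and Plac8 at -0.64 ± 0.78. With 1 liver left out at a time Itgam ran from -1.77 to -0.79, S100a4 from -1.54 (without GCV female 31) to -0.47 (without VEH female 29) and Plac8 from -1.09 (without VEH female 27) to -0.20 (without VEH female 28). Adjusted p-values by edgeR ran from 0.681 to 1 over the 10 genes. DESeq2 and limma-voom called none of them either, against 0.414% and 0.0322% of all genes. The median over the members was -0.16 without VEH female 28. Without GCV female 33 all 10 log2 fold changes were below 0, with a median of -1.22, no member had an unadjusted p under 0.05, and 4.59% of all genes did.

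In p16-3MR males the direction was the opposite, with all 10 log2 fold changes above 0 and a median of 1.00 against 0.04 over all genes. Again edgeR called no member, and no member had an unadjusted p under 0.05, against 0% of all genes called and 1.91% at an unadjusted p under 0.05. Chil3 had the largest log2 fold change, 2.27 ± 1.74 (SE, edgeR). S100a9 followed at 1.90 ± 1.54, S100a8 at 1.86 ± 1.67, Itgam at 1.61 ± 1.38 and Ly6c2 at 1.13 ± 1.1. The others lay between 0.57 ± 0.99 for Ccr2 and 0.88 ± 0.87 for Itgax, adjusted p by edgeR was 1 for each of the 10, and DESeq2 and limma-voom called none, against 0.023% and 0.667% of all genes. GCV and VEH males overlapped for every member, while 6.4% of all genes did not overlap.

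**Figure D4:**
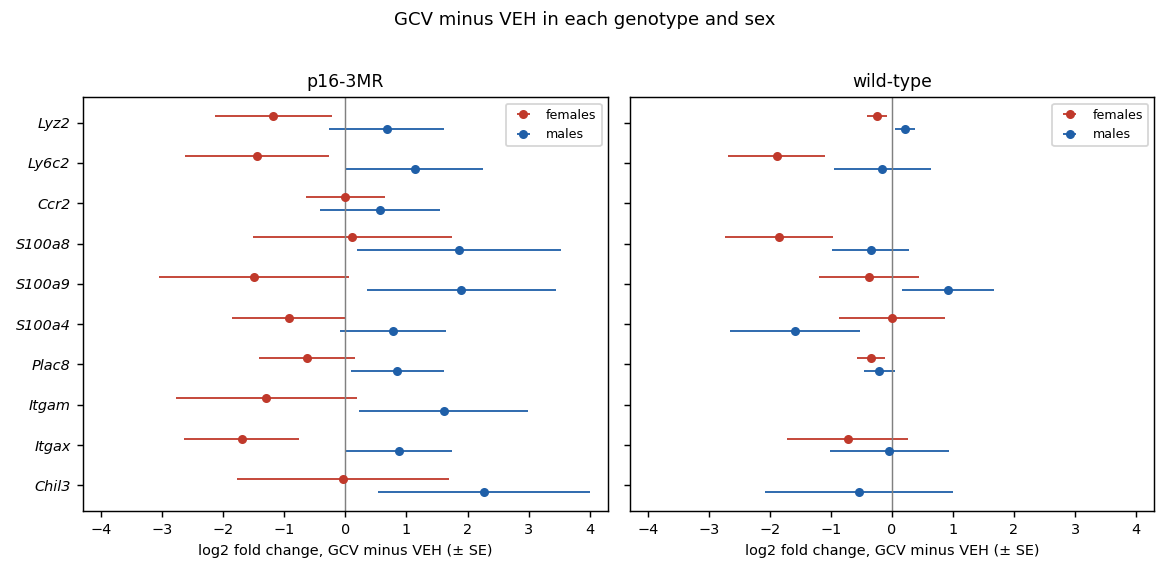
Log2 fold change of GCV minus VEH (x axis, edgeR, bars are ± 1 SE) for each member in females and males of each table; Ccr2 and Itgam have no wild-type value and Chil3 had no reads in wild-type females. In p16-3MR livers the female values are at or below 0.11 and the male values at or above 0.57.

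These male values turned on single livers. Without VEH male 24 the median was 3.48 and 9 of 10 members had an unadjusted edgeR p under 0.05 (the exception was Itgax), against 7.76% of all genes, with a smallest adjusted p of 0.491. Without GCV male 32 the median was 0.29, Itgam stood at -1.24 and Lyz2 at -0.63, and no member had an unadjusted p under 0.05. With both left out, a choice made after seeing the data, the median was 2.17 and 7 of 10 members had an unadjusted p under 0.05, against 3.56% of all genes, and the smallest adjusted p was 0.994. Both medians are the same with Chil3, which had no reads in VEH males 25 and 26, set at the bound that 3 counts give. With limma-voom quality weights over all livers, 8 of 10 members had an unadjusted p under 0.05, against 23.1% of all genes, and the smallest adjusted p was 0.0895. The remaining GCV males 30 and 34 were far apart: S100a9 was at 77.5 CPM in the former and 4.99 CPM in the latter, and VEH males 25 and 26 were at 3.39 and 2.03 CPM.

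The difference between the sexes in the p16-3MR response was tested itself. All 10 members had a lower GCV minus VEH change in females than in males, from -0.57 for Ccr2 to -3.40 for S100a9 on the log2 scale, with a median of -2.09 against -0.04 over all genes. No member was called by edgeR and none had an unadjusted p under 0.05, against 0% of all genes called and 3.78% at an unadjusted p under 0.05. Itgax had the smallest p, with a log2 difference of -2.57 ± 1.28 (edgeR adjusted p = 0.976). This difference also turned on single livers. Without VEH male 24, 9 of 10 members had an unadjusted edgeR p under 0.05 (the exception was S100a8), against 8.48% of all genes, with values from -6.85 to -2.79 apart from Chil3, which VEH males 25 and 26 lacked, and a smallest adjusted p of 0.306. Without males 24 and 32 there were 8 such members, against 5.72% of all genes, and by limma-voom 3, against 15.5%. Without GCV male 32 the median was -0.78, and without VEH female 28 it was -1.11 and S100a8 stood at 0.86, with no member at an unadjusted p under 0.05 in either fit.

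VEH females and VEH males of the p16-3MR strain were compared for the level without GCV. Log2 differences ran from -1.07 for Itgam to 1.32 for S100a8, with 6 members higher and 4 lower in females. By limma-voom with quality weights all 10 were higher in females, from 0.44 for S100a4 to 3.43 for Chil3, with no unadjusted p under 0.05. Without VEH male 24 all 10 were higher in females, from 1.05 for S100a4 to 4.47 for S100a9 apart from Chil3, which the remaining VEH males lacked, and 4 had an unadjusted edgeR p under 0.05, against 3.57% of all genes. Without VEH female 28 it was 8 of 10 that were lower in females, with values from -1.34 for S100a8 to 0.58 for Itgax and no unadjusted p under 0.05. With all livers no member was called or had an unadjusted edgeR p under 0.05, against 0.12% of all genes called and 2.74% at an unadjusted p under 0.05. For every member the 2 groups overlapped, whereas 9.34% of all genes had groups that did not.

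In wild-type livers the members lay lower in count and closer together. Lyz2 was at 66.9, 69.0 and 72.9 CPM in GCV females 4, 5 and 6, at 71.5, 91.8 and 85.3 CPM in VEH females 4, 5 and 6, at 55.7, 70.4 and 85.5 CPM in GCV males 1, 2 and 3 and at 76.4, 54.6 and 52.4 CPM in VEH males 1, 2 and 3. The highest liver was 1.74-fold above the lowest, where the p16-3MR livers spanned 22-fold. Plac8 was at 11.5, 13.5 and 15.0 CPM in GCV females, at 15.6, 19.0 and 16.2 CPM in VEH females, at 5.66, 7.80 and 11.6 CPM in GCV males and at 10.9, 10.1 and 8.13 CPM in VEH males. Levels across the 2 tables were scaled separately and are set side by side as ranges only.

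The other 6 measured members had few reads in wild-type livers. S100a8 had 1 to 13 counts, S100a9 0 to 12, S100a4 0 to 17, Ly6c2 1 to 10 and Itgax 1 to 5 counts per liver. Chil3 was read only in GCV male 3 (4 counts) and VEH males 1 and 3 (6 counts and 1 count). The highest level among these 6 genes was 3.77 CPM, for S100a9 in GCV male 1. No value of these 6 genes rests on more than 17 reads. The 4 neutrophil genes that could be matched summed to at most 3.76 CPM in any wild-type liver, and the 7 Kupffer cell markers to 208 to 391 CPM. The genes most like the 8 members in order over the 12 wild-type livers, among 6778 compared, were led by Arhgef1, Serpinh1, C1qc and Cd68, with rho from 0.930 for the first to 0.832 for the 10th.

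In wild-type females all 7 members with reads had a log2 fold change below 0 for GCV against VEH, with a median of -0.36 when Chil3, which had no reads in females, is taken at 0. None was called by edgeR, against 0.00791% of all genes, and 1 had an unadjusted p under 0.05, against 4.56% of all genes. That gene was Ly6c2, with 2, 1 and 3 counts with GCV and 9, 10 and 6 with VEH, or 0.429 ± 0.131 and 1.72 ± 0.429 CPM (SD, n = 3). Its log2 fold change was -1.89 ± 0.79 (SE, edgeR adjusted p = 1). Leaving out 1 female at a time, 0 to 2 members had an unadjusted p under 0.05, against 3.37% to 5.31% of all genes (0 members without GCV female 4, GCV female 5 or VEH female 5, and 2 without VEH female 6), and the median was -0.85 without GCV female 6. S100a8, at 1 count in each GCV female and 2 to 6 counts in VEH females, stood at -1.85 ± 0.89 (edgeR adjusted p = 1). Ly6c2, S100a8 and Plac8 had GCV and VEH females that did not overlap, 3 of 8 members beside 10% of all genes. Plac8 stood at -0.34 ± 0.23, S100a9 at -0.38 ± 0.82, Lyz2 at -0.25 ± 0.16, Itgax at -0.73 ± 1.00 and S100a4 at -0.01 ± 0.87. The value for Itgax ran from -1.65 to -0.32 when 1 female was left out.

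In wild-type males edgeR called no member (0% of all genes), and no member had an unadjusted p under 0.05, against 5.06% of all genes. Their median log2 fold change was -0.19, and it was 0.17 without GCV male 2, 0.12 without VEH male 1 and -0.49 without GCV male 3. Without GCV male 1 or VEH male 1, 1 member had an unadjusted p under 0.05, against 4.31% and 9.68% of all genes. S100a4 stood at -1.59 ± 1.06 (SE, edgeR), S100a9 at 0.92 ± 0.75, Lyz2 at 0.21 ± 0.16, Plac8 at -0.21 ± 0.26, S100a8 at -0.35 ± 0.63, Ly6c2 at -0.16 ± 0.79, Itgax at -0.04 ± 0.97 and Chil3 at -0.54 ± 1.54. Leaving out 1 male at a time, S100a4 ran from -2.58 to -0.76 and S100a9 from 0.51 to 1.39. GCV and VEH males overlapped for all 8, while 8.85% of all genes did not. The sex difference in the wild-type response was called for no member (0.00791% of all genes) and none had an unadjusted edgeR p under 0.05 (4.45% of all genes). The smallest p was that of Lyz2, with a log2 difference of -0.46 ± 0.22 (SE, edgeR adjusted p = 0.982).

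**Figure D5:**
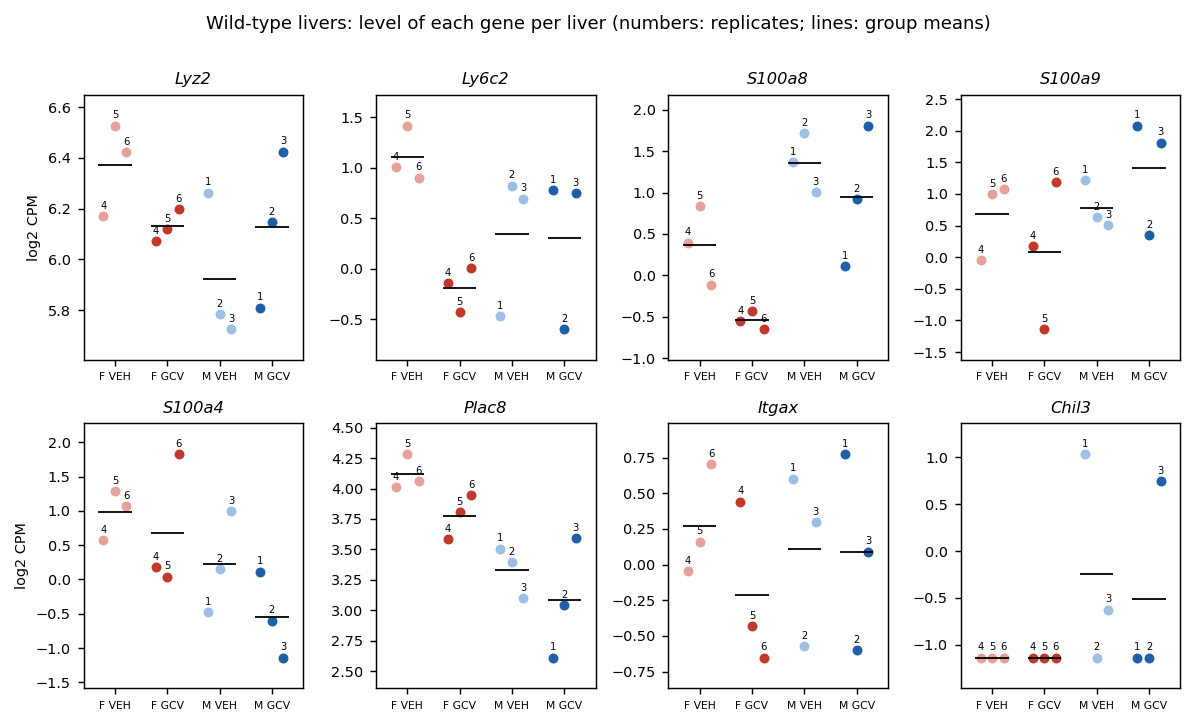
Log2 CPM of the 8 members measured in wild-type livers, by sex and treatment; points are livers with their replicate numbers and lines are group means, and the y axis differs between panels. Plac8 in the 3 VEH females lies above the 3 VEH males, and the members other than Lyz2 and Plac8 have lower log2 CPM values than these genes.

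In VEH-treated wild-type mice 2 members had an unadjusted p under 0.05 for the difference between the sexes, and none was called by edgeR or DESeq2. Plac8 averaged 17.0 ± 1.81 CPM in females and 9.70 ± 1.43 CPM in males (SD, n = 3), a log2 difference of 0.81 ± 0.24 (SE, edgeR adjusted p = 0.0593). The 2 groups did not overlap. Lyz2 averaged 82.9 ± 10.3 CPM in females and 61.2 ± 13.2 CPM in males, a log2 difference of 0.44 ± 0.16 (edgeR adjusted p = 0.150), and VEH male 1 lay among the females. Without VEH male 1 edgeR called both genes, at 0.90 for Plac8 and 0.63 for Lyz2, and 5.66% of all genes. Limma-voom called Plac8 (adjusted p = 0.0347) and 4.94% of all genes. The others ranged from -1.26 for S100a8 to 0.85 for Ly6c2, apart from Chil3, which females lacked. In this comparison edgeR called 3.82% of all genes and 15.2% had an unadjusted p under 0.05, so the 2 of 8 members stand beside a high background. Groups did not overlap for 3 members (Plac8, Ly6c2 and S100a8), beside 18.5% of all genes.

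Other genes of the same pathways mostly had opposite signs in the 2 sexes of p16-3MR livers, and none passed edgeR's adjusted test. Of 18 neutrophil genes, 16 were below 0 in females and 16 above 0 in males. Mmp9, a neutrophil gelatinase, had an unadjusted p under 0.05 in males, with 12, 261 and 0.384 CPM in GCV livers 30, 32 and 34 against 7.47, 0.893 and 0.625 CPM in VEH livers 24, 25 and 26. Its log2 fold change was 4.87 ± 1.64 (SE, edgeR adjusted p = 1) and was 0.97 without GCV male 32. The level in liver 32 stood far above the other males, and the groups overlapped. Its sex difference was -6.11 ± 2.40 (edgeR adjusted p = 0.976), or -2.16 without GCV male 32.

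Of 20 monocyte genes, 19 were below 0 in p16-3MR females and 17 above 0 in males. Spn, the sialophorin of patrolling monocytes and T cells, averaged 1.87 ± 0.561 CPM in GCV females and 9.28 ± 6.65 CPM in VEH females (log2 fold change -2.25, edgeR adjusted p = 0.667). Ear2, a ribonuclease of the eosinophil family, was at -1.73 (edgeR adjusted p = 0.667). In the sex difference 4 of the 20 monocyte genes had an unadjusted p under 0.05, against 3.78% of all genes, each lower in females: Ear2 at -2.73, Spn at -2.85, Irf8 at -2.36 and Cybb at -3.51 (edgeR adjusted p = 0.976 for each). With 1 liver left out at a time Cybb ran from -5.91 (without VEH male 24) to -2.11 (without GCV male 32), Irf8 from -3.64 to -1.49 and Spn from -4.64 to -2.37. Irf8 is a transcription factor of monocytes and dendritic cells, and Cybb is the catalytic chain of the phagocyte oxidase.

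Ligands of the receptors were less uniform. Of 7 chemokines for CCR2 or CXCR2, 5 were below 0 in p16-3MR females, and 6 were above 0 in males. Cxcl1, a neutrophil attractant, had a log2 fold change of 1.67 in females (edgeR adjusted p = 0.667), or 0.01 without GCV female 31. Cxcl5, another such attractant with few reads, also had an unadjusted p under 0.05 in females and in the sex difference, each time lower, and is named after its values were seen. Ccl8 had a sex difference of -4.88 (edgeR adjusted p = 0.976), which ran from -8.56 without GCV female 35 to -2.03 without VEH female 29. Ccl7 had a log2 difference of -3.72 between VEH females and VEH males (edgeR adjusted p = 1), and the value was 0.94 without VEH male 24. Of 13 integrin and adhesion genes, 11 were below 0 in females. Itgal, the CD11a chain of leukocytes, averaged 5.91 ± 2.56 CPM with GCV and 27.9 ± 12 CPM with VEH in females (log2 fold change -2.16, edgeR adjusted p = 0.667), with a sex difference of -3.22 (adjusted p = 0.976; -4.88 to -1.81 with 1 liver left out).

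Of the remaining S100 genes and their receptors, 7 of 10 were below 0 in p16-3MR females with a median of -0.17, and 9 of 10 above 0 in males with a median of 0.48, and none had an unadjusted p under 0.05. Of the Kupffer cell markers, 11 of 11 were below 0 in females, 10 of 11 above 0 in males, and no marker was called. Cd163, a haemoglobin scavenger receptor, was at -3.40 in females (edgeR adjusted p = 0.647) and Adgre1, which encodes F4/80, at -2.22 (edgeR adjusted p = 0.667). In the sex difference Cd163 was at -5.05, Vsig4, a complement receptor, at -3.84 and Adgre1 at -3.14 (edgeR adjusted p = 0.976 for each). Without GCV male 32 these values were -2.92, -1.97 and -1.98. Between VEH females and VEH males 9 of the 11 markers were below 0 and 2 above, with a median of -0.44. Cd163 was among those above, with a log2 difference of 2.80 (edgeR adjusted p = 1). Without VEH female 29 that difference was 1.30, and the change of Cd163 with GCV in females was -1.97.

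In wild-type livers fewer of these genes could be matched to a label, 4 of 18 neutrophil and 9 of 20 monocyte genes among them. For GCV against VEH none was called. Irf8 had a log2 fold change of 0.59 in males (edgeR adjusted p = 0.889) and Nr4a1, a factor of patrolling monocytes that is named after its values were seen, was also at an unadjusted p under 0.05. The sex difference of Irf8 was -0.76 (adjusted p = 0.982). Among VEH mice, the log2 difference of females minus males was 0.59 for Irf8 (adjusted p = 0.175), 0.70 for Ms4a6c, a membrane protein of monocytes (adjusted p = 0.309), and 0.43, 0.56 and 0.39 for the Kupffer cell genes C1qb, Vsig4 and C1qc (adjusted p from 0.239 to 0.310). Cxcl1 stood at -2.29 (adjusted p = 0.231) and at 0.37 without VEH male 1. S100a1, a calcium sensor and S100 relative, was the only gene of these pathway and Kupffer cell lists that edgeR called with all livers in the fit, at 140 ± 12.4 CPM in VEH females and 183 ± 8.55 CPM in VEH males (SD, n = 3; log2 difference -0.39, adjusted p = 0.0444), and it lost the call when VEH female 4 or 6 or VEH male 2 or 3 was left out. That 1 call stands beside 3.82% of all genes, and 1 gene each was also called in the pan-leukocyte, erythroid and hepatocyte lists. Vsig4 was called without VEH male 1, at 0.96 (adjusted p = 0.017), as were 5.66% of all genes, and ran from 0.30 to 0.96 with 1 liver left out at a time.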

How the data were processed

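Liver RNA from 24 mice was read by Smart-3SEQ from 15 ng of RNA. The authors trimmed reads (Trim Galore 0.6.10, FastQC 0.11.9 per the submitters' processing notes), estimated transcript abundance with Salmon 1.10.3 and a decoy-aware index (mm10 in the same notes), summed it to genes with tximport and dropped genes under 3 reads. The values the authors deposited are these estimated counts per gene, as whole numbers and unscaled. The authors tested them with DESeq2. Genes of each table were tested here with edgeR 4.0.16 in R 4.3.3 (TMM, 1 mean per group over 12 livers, quasi-likelihood test, Benjamini-Hochberg over all genes, calls at adjusted p under 0.05). CPM uses TMM-scaled totals and log2 CPM a prior count of 2. Alternatives were DESeq2 1.42.0, its size factors, filterByExpr, limma 3.58.1 with quality weights, 1 sex alone, a replicate block and leaving livers out. Ranks and permutation tests used scipy 1.17.1, tables pandas 2.3.3 on numpy 2.4.6, and plots matplotlib 3.10.9, all under Python 3.11.15. The fit was tested on simulated data with 200 changed genes. Of 12643 wild-type labels, 10496 matched 1 symbol, 2067 several and 80 none. Named beyond the members were list genes at an unadjusted p under 0.05 with a mean of at least 10 counts, at most 4 per list and comparison. Near copies were found by 31-base words in the last 300 bases of transcripts. The members, lists and tests were chosen with earlier results of these data known. Total counts limit precision as given above, and intervals and the 3-count limit include no error but that of counting, as PCR copies of 1 molecule are not independent. The sample titles tell replicates apart by number only, and the study states 3 mice per group. The p-values weigh differences between groups against the spread between these samples.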

Additional observations from a re-analysis of the deposited data

How the results depend on the processing

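Of 66 fold changes of single genes, 52 kept their sign under every alternative run and 14 changed it under at least 1. In p16-3MR females Ccr2 was at 0.13 by DESeq2 and 0.050 with its size factors, and by limma-voom Chil3 was at 0.29 and S100a8 at -0.85. Ccl7 (VEH females minus VEH males) was at 0.45 by limma-voom and 0.96 without males 24 and 32. In wild-type livers S100a4 was at 0.00625 in females fitted alone, and in males Chil3 was at 0.10 and Itgax at 0.36 by limma-voom. S100a8 against S100a9 in wild-type livers had r = -0.13 with group means removed. Members at an unadjusted p under 0.05 numbered 2 in p16-3MR females fitted alone (7.35% of all genes). In p16-3MR males they numbered 8 by limma-voom (23.1%) and 7 without males 24 and 32 (3.56%). In wild-type females they numbered 2 fitted alone (6.11%) and 0 with filterByExpr (4.87%). That filter kept only 2 members there, Lyz2 and Plac8, so Ly6c2 was removed before the test. Limma-voom called 1 member between wild-type VEH females and males (4.94% of all genes). The cause of the other shifts was not tested.

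Leaving out 1 liver at a time gave these ranges of log2 fold change. In p16-3MR females they were -0.73 to 0.42 for Ccr2, -2.30 to 2.68 for S100a8, -1.56 to 1.91 for Chil3 and -2.17 to 0.86 for S100a9. In p16-3MR males they were -1.24 to 4.82 for Itgam, -0.63 to 2.91 for Lyz2 and 0.29 to 3.48 for the members' median, with 0 to 9 members at an unadjusted p under 0.05. Ccl7 ran from -4.89 to 0.94. In wild-type females they were -1.25 to 0.33 for S100a4, -1.62 to 0.090 for S100a9 and -0.85 to -0.21 for the median, with 0 to 2 members at an unadjusted p under 0.05. In wild-type males they were -0.99 to 0.011 for S100a8, -4.40 to 1.65 for Chil3, -0.78 to 0.44 for Itgax, -0.55 to 0.38 for Ly6c2 and -0.49 to 0.17 for the median, with 0 to 1 members. Between wild-type VEH females and males 0 to 2 members were called, with 2.52% to 5.66% of all genes, the 2 calls at the highest share, and Cxcl1 ran from -2.92 to 0.37.

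The wild-type labels share replicate numbers between GCV and VEH, with no statement of pairing. The deviations of same-numbered livers from their group means had r of -0.045, -0.057 and 0.0018 in females and 0.196, 0.283 and -0.066 in males. Livers with different numbers had r from -0.045 to 0.085 in females and from -0.349 to 0.170 in males. So few pairs of livers cannot decide whether GCV and VEH livers were paired. With the replicate block, 0 members had an unadjusted p under 0.05 in wild-type females (5.68% of all genes) and 1, Lyz2, in the sex difference (5.27%). It moved the calls over all genes from 1 to 106 in females and from 0 to 68 in males. The p16-3MR livers share no numbers between groups. Depth limits the 6 members with at most 17 counts in wild-type livers.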

Other observations

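The 7 B cell markers summed to 560 CPM in GCV male 34, a liver with low levels of most members, and to 30.9 to 175 CPM in the other 11 p16-3MR livers. Most of that sum was Ighm, the constant region of IgM, with 2664 counts in GCV male 34 and 203 counts in GCV male 32. Of the 7 genes, 6 were below 0 for GCV against VEH in p16-3MR females, their median standing at -1.87 on the log2 scale, and all 7 were above 0 in males, with a median of 1.28. In females 3 had an unadjusted edgeR p under 0.05, against 7.37% of all genes, and none was called. Ms4a1, which encodes the B cell antigen CD20, averaged 2.51 ± 1.72 CPM in GCV females and 14.0 ± 13.8 CPM in VEH females (SD, n = 3), a log2 fold change of -2.52 ± 0.84 (SE, edgeR adjusted p = 0.646).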
